A study of Mus musculus with 6 samples.

Results

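Of the 20097 mouse genes listed in the data, 10 were followed: genes of megakaryocytes and platelets that are known as direct targets of the transcription factor RUNX1 or as altered in familial platelet disorder, the inherited low-platelet condition caused by RUNX1 mutations. They were taken by name: the transcription factor gene Nfe2, the non-muscle myosin genes Myh9, Myh10 and Myl9, the tubulin gene Tubb1, the lipoxygenase gene Alox12, the protein kinase C gene Prkcq, the chemokine genes Pf4 and Ppbp, and Vwf, which encodes von Willebrand factor. Poly-A RNA was sequenced from mouse bone marrow cells positive for c-Kit, the receptor that marks stem and progenitor cells of the blood. The labels put 3 libraries under WT and 3 under Runx1 KO as genotype, with this 1 cell type for all. The labels give no strain, age, sex or treatment, do not say how or when Runx1 was disrupted, and do not say whether each library came from a different animal, so the p-values measure the spread between these libraries, which may be technical.

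As background, megakaryocytes are large marrow cells that make platelets, and RUNX1 binds regulatory DNA of many of their genes. As these cells mature, RUNX1 is known to silence MYH10, whose product takes part in cell division, while the product of MYH9 becomes the main myosin of platelets. In the platelets of people with a germline RUNX1 mutation, MYH10 has been described as raised, and MYL9, ALOX12, PRKCQ, NFE2, TUBB1 and PF4 as lowered. The cells measured here are mouse progenitors and not platelets, so the direction of a change in platelets is given only as background.

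Reads assigned to the listed genes, worked out from the deposited values, ranged from 23297526 to 26793380 per library. Of these genes, 15410 had enough reads to be tested. The targeted gene went against the label: Runx1 had 3031, 2799 and 3497 normalised reads under the label WT and 6648, 6720 and 5830 under Runx1 KO, 2.06-fold more (limma adjusted p = 0.00163). Values per gene cannot show whether a part of the transcript was missing, so "rose" and "fell" compare libraries by their labels, Runx1 KO relative to WT, and "WT libraries" and "Runx1 KO libraries" stand for the libraries so labelled. Kit, the gene of the selected receptor, was present in all libraries, with 8301 ± 280 normalised reads under the label WT and 12649 ± 1093 under Runx1 KO (SD, n = 3). On the first principal component, library Runx1 KO 1 scored 22.8, nearer to the WT libraries (from -64.98 to -39.82) than Runx1 KO 2 at 64.5 and Runx1 KO 3 at 60.8.

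The 10 genes did not move together. Alox12, Tubb1, Prkcq and Vwf rose in the libraries labelled Runx1 KO, Myh9 fell, and Nfe2, Myh10, Pf4 and Ppbp did not pass the test. Myl9 was too low to be tested in the main fit. Of the 9 tested genes 5 passed a limma adjusted p of 0.05, or 55.6%, against 21.9% of all genes tested, 4 of them higher (background 10.6%) and 1 lower (background 11.3%). The median log2 change of the 9 was 0.47, against -0.0042 over all genes tested. In 7 of the 9 the 3 libraries of a label lay wholly above or below those of the other, which held for 43.3% of all genes tested. The genes were chosen with earlier results of these data known, so these shares are a description and no test of enrichment. Each of the 9 had enough reads in either group alone to enter the test, so none was tested only because it was high on one side. In RNA from a mixed population, fewer cells of a type and less RNA per cell cannot be told apart.

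**Figure D1:**
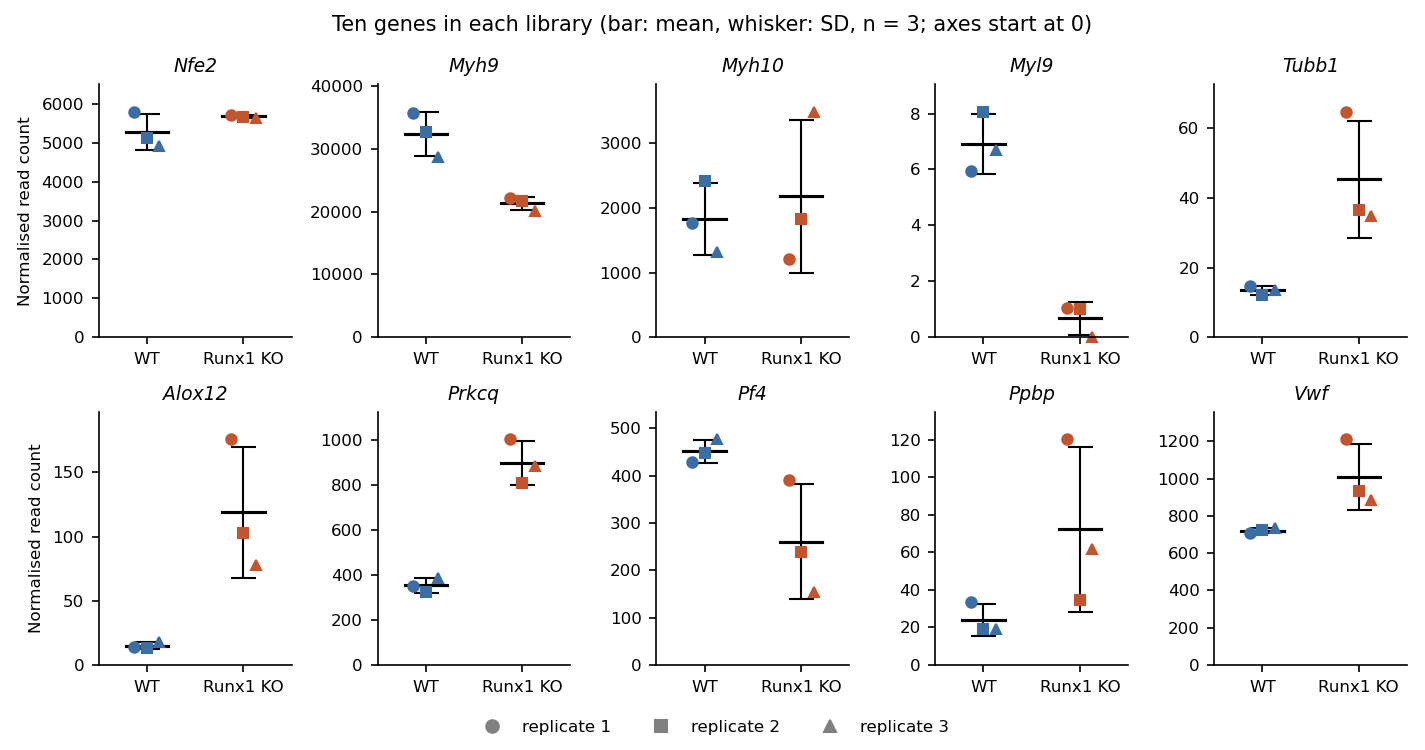
Normalised read count (y axis, starting at 0) of each of the 10 genes in the 3 libraries labelled WT (blue) and the 3 labelled Runx1 KO (orange); symbols mark the replicate number, the horizontal line the mean and the whiskers the SD. The groups separate for every gene but Nfe2 and Myh10, and Runx1 KO replicate 1 (circle) is the highest library of its group in every panel except that of Myh10.

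The levels of the genes spanned a wide range. On the scale of reads per kilobase of exon, scaled to library depth, the order under the label WT was Myh9 (96.6 ± 7.95), Nfe2 (68.3 ± 4.40), Pf4 (24.2 ± 2.03), Myh10 (6.74 ± 1.95), Prkcq (1.93 ± 0.225), Vwf (1.74 ± 0.0863), Ppbp (0.852 ± 0.277), Tubb1 (0.370 ± 0.0358), Myl9 (0.230 ± 0.0366) and Alox12 (0.143 ± 0.0306; SD, n = 3). Of these neighbours, only Prkcq and Vwf overlapped between libraries. Under the label Runx1 KO, Nfe2 (77.8 ± 0.877) stood above Myh9 (67.5 ± 3.13) in level per kilobase, and Ppbp (2.73 ± 1.66) was next to Vwf (2.57 ± 0.454). There the libraries overlapped between Pf4 and Myh10, between Myh10 and Prkcq, between Ppbp and Vwf, and between Tubb1 and Alox12. Nfe2 and Myh9 were thus the most abundant of the 10 in these progenitors, followed by mean level under both labels by Pf4. The platelet genes thus differed in level, since Tubb1, Ppbp and Alox12 were rare and Pf4 was not.

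Nfe2 (ENSMUSG00000058794; chromosome 15, 103248212 to 103258403, minus strand, GRCm38) encodes the large subunit of NF-E2, a factor that platelet release from megakaryocytes requires and that erythroid cells use too. It had 5809, 5127 and 4919 normalised reads in WT replicates 1 to 3 and 5731, 5676 and 5650 in Runx1 KO replicates 1 to 3. The Runx1 KO libraries all lay within the range of the WT libraries. Its log2 change was 0.11 (SE 0.07; 95% interval from -0.059 to 0.28; limma adjusted p = 0.308), an interval that holds small changes in both directions. The small MAF proteins, the partners of the NF-E2 subunit, are encoded by Mafg, Mafk and Maff, and 0 of these 3 passed. Mafg had 2329 ± 108 normalised reads against 2057 ± 53.9 and Mafk 1778 ± 509 against 1314 ± 97.7 (SD, n = 3; limma adjusted p = 0.0743 and 0.156).

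Among 19 other regulators of megakaryocytes, 9 rose, 3 fell and 7 did not pass. The largest of these changes were those of Ets1, Gfi1b and Runx1 itself. Ets1, an ETS-family factor, fell from 3674 ± 882 to 736 ± 271 normalised reads (log2 change -2.35). Gfi1b, a repressor needed for megakaryocyte and erythroid maturation, rose from 1370 ± 302 to 2986 ± 857 (log2 change 1.11). When Runx1 KO replicate 2 was left out, 4 of the 19 rose and 2 fell.

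The myosin genes encode the motor that platelets contract with. Non-muscle myosin II consists of heavy chains, here from Myh9 (myosin IIA) or Myh10 (myosin IIB), and of regulatory light chains such as that from Myl9. Myh9 (ENSMUSG00000022443; chromosome 15, 77760587 to 77842175, minus strand) had 35803, 32706 and 28666 normalised reads in the WT libraries and 22128, 21774 and 20122 in the Runx1 KO libraries. The lowest WT library held more than the highest Runx1 KO library, and Myh9 fell by 0.60 on the log2 scale (SE 0.09; limma adjusted p = 0.00667), to 0.659 times its WT level. The fall passed whichever of the 6 libraries was left out, with limma adjusted p values from 0.00844 to 0.0321.

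Myh10 (ENSMUSG00000020900; chromosome 11, 68691559 to 68816632, plus strand) had 1760, 2420 and 1313 normalised reads in the WT libraries and 1212, 1831 and 3493 in the Runx1 KO libraries. The groups overlapped, since the lowest and the highest value of all both lay under the label Runx1 KO, 2.88-fold apart. The log2 change was 0.16 (SE 0.39; 95% interval from -0.76 to 1.07; limma adjusted p = 0.799), and without Runx1 KO replicate 3 it was -0.25 (limma adjusted p = 0.599). Genes of red cell precursors varied in the same libraries. The sum of 12 erythroid markers was 20192, 30511 and 18035 normalised reads in the WT libraries and 14975, 17219 and 26317 in the Runx1 KO libraries, and within each label the 3 libraries stood in the same order by this sum and by Myh10. The markers were split, as seen in genes named after their values were seen. In Runx1 KO replicates 1 to 3 Ermap had 4336, 6324 and 9644 normalised reads, but Hba-a1 had 1065, 559 and 626. Hba-a1, Hbb-bs, Hbb-bt and Alas2 were all highest in Runx1 KO replicate 1, where Myh10 was lowest. None of the 12 was at 0 in all libraries. In the limma test 5 of them fell and 0 rose (5 fell and 4 rose without Runx1 KO replicate 1). The part of erythroid cells in the level of Myh10 was not tested.

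**Figure D2:**
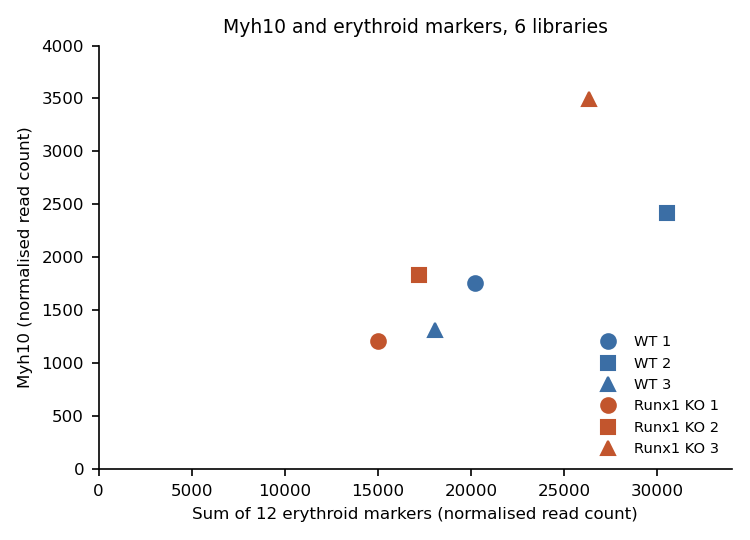
Myh10 (y axis, normalised read count) against the summed normalised read count of 12 erythroid markers (x axis), 1 point per library, both axes starting at 0. Within each label the library with the larger erythroid sum holds more Myh10, up to 2420 in WT replicate 2 and 3493 in Runx1 KO replicate 3. The sum does not stand for each marker: Hba-a1, Hbb-bs, Hbb-bt and Alas2 were highest of their group in Runx1 KO replicate 1.

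The genes with the profile most like that of Myh10 over the 6 libraries were Add2 (Pearson's r = 0.998), Sh3tc2 (0.996) and Acsl6 (0.995), out of 12268 genes with a mean of at least 50 normalised reads. Add2 encodes a subunit of adducin, a protein of the red cell membrane skeleton. Its values of 1465, 1923 and 1206 in the WT libraries and 1070, 1495 and 2610 in the Runx1 KO libraries follow the order of Myh10 in both groups. That shared order follows from the choice of Add2 by its likeness to Myh10. These are correlations over 6 libraries that share their depth and their makeup of cells, and are given as a description.

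Because RUNX1 is known to act on the balance of the heavy chains, Myh10 was also set against Myh9 in each library. Per kilobase of exon, Myh10 stood at 6.08%, 9.15% and 5.66% of Myh9 in the WT libraries and at 6.77%, 10.4% and 21.5% in the Runx1 KO libraries. Runx1 KO replicate 3 stood far above the others, and Runx1 KO replicate 1 lay within the WT range. The mean log2 ratio was higher by 0.75 (-4.18 ± 0.37 against -3.43 ± 0.84, SD, n = 3), with an exact two-sided permutation p of 0.2, where 3 libraries against 3 cannot go below 0.1. The difference was 0.30 without Runx1 KO replicate 3 and 1.13 without Runx1 KO replicate 1.

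Myl9 (ENSMUSG00000067818; chromosome 2, 156775420 to 156781658, plus strand), the light chain gene, was close to the limit of detection in these progenitors. It had 6, 8 and 7 reads in the WT libraries and 1, 1 and 0 in the Runx1 KO libraries, so each WT library held more than each Runx1 KO library. Over the groups this was 21 reads against 2, a 9.68-fold lower rate under the label Runx1 KO, with an exact 95% interval from 2.37 to 85.1 that covers counting error only. With no filter on low values its log2 change was -2.30 (SE 0.45; limma adjusted p = 0.0141). Smooth muscle cells are rich in Myl9: 3 of 5 smooth muscle markers were listed in the data, summing to 263, 61.6 and 47.0 normalised reads in the WT libraries and 76.4, 36.7 and 36.8 in the Runx1 KO libraries. Myh11 and Des, defining genes of muscle cells, had no row in the data. Of the 2 tested markers 0 passed, and the part of such cells in the reads of Myl9 was not tested.

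The promoter of Myl9 is shown because it was the 1 window of 8 in which the letters of the RUNX site were found. The windows, 250 bases before and 50 after the RefSeq start site on GRCm38.p6, were matched by symbol for 8 of the 10 genes, all but Nfe2 and Vwf. The letters TGTGGT or TGCGGT on either strand occur in 22.4% of 32851 such windows. That of Myl9 (chr2:156775214-156775513, plus strand, 5′ to 3′) holds TGCGGT read on the opposite strand, in capitals, from base 5 after the start site:
Myl9: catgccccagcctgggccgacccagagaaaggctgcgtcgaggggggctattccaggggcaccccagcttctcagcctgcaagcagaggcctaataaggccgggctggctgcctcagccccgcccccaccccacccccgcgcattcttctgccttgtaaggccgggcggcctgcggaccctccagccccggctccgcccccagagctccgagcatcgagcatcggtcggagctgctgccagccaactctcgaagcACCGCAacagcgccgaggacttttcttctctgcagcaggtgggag
A match of letters is no evidence of binding, and RUNX1 is known to act through distant enhancers as well.

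Genes of the same contractile machinery were mostly lower. Of 22 tested actomyosin genes 12 fell, 2 rose and 8 did not pass, with a median log2 change of -0.30. Actn1, which encodes the actin crosslinker alpha-actinin, fell from 4279 ± 1014 to 1320 ± 153 normalised reads (log2 change -1.68), and Flna, the gene of the actin crosslinker filamin A, from 48830 ± 5659 to 23466 ± 1936 (-1.05). Mylk, which encodes the kinase that activates myosin light chains, rose from 109 ± 14.3 to 215 ± 27.9 (log2 change 0.98; limma adjusted p = 0.00861). The ubiquitous light chain gene Myl12a, named after its values were seen, fell by 0.45 on the log2 scale (limma adjusted p = 0.00956). Neutrophils are rich in these genes, and 8 of 9 tested neutrophil markers fell, their sum being 272700 to 333420 normalised reads in the WT libraries and 135294 to 185161 in the Runx1 KO libraries, with none at 0; their part in the falls of Myh9 and of the actomyosin genes was not tested. Leaving out Runx1 KO replicate 2 gave 7 falling actomyosin genes and 4 falling neutrophil markers.

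Tubb1 (ENSMUSG00000016255; chromosome 2, 174450695 to 174457882, plus strand) encodes beta-1 tubulin, the megakaryocyte isotype that forms the ring of microtubules in platelets and a known target of NF-E2. It had 14.8, 12.1 and 13.4 normalised reads in the WT libraries and 64.9, 36.7 and 34.8 in the Runx1 KO libraries. All 3 Runx1 KO libraries lay above the WT libraries, replicate 1 highest. Tubb1 rose 3.38-fold in the means (log2 change 1.63, SE 0.30; limma adjusted p = 0.0116), and the rise passed whichever library was left out (adjusted p up to 0.0386).

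Of 13 other tested tubulin genes 0 rose, 6 fell and 7 did not pass. The highest log2 change among those that did not pass was that of Tubb3, the neuronal beta tubulin gene, named after its values were seen: 9.89, 35.3 and 15.3 normalised reads in the WT libraries and 39.8, 87.2 and 37.8 in the Runx1 KO libraries (log2 change 1.48; limma adjusted p = 0.0819). The largest falls were those of Tubb2b, Tubb6 and Tuba8. Tubb6 fell from 963 ± 272 to 494 ± 126 normalised reads and Tuba8 from 1160 ± 208 to 657 ± 103 (log2 changes -0.95 and -0.82). Tubb2b was uneven under the label WT, with 318, 39.4 and 74.8 normalised reads against 18.8, 3.96 and 1.99 under Runx1 KO. The count of falls was 2 without Runx1 KO replicate 3, and 1 tubulin gene rose without WT replicate 2.

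Alox12 (ENSMUSG00000000320; chromosome 11, 70241457 to 70255353, minus strand) encodes the platelet 12-lipoxygenase, which turns arachidonic acid into 12-HETE. It showed the largest rise of the 10 genes. Its values were 13.8, 13.1 and 18.2 normalised reads in the WT libraries and 176, 103 and 77.6 in the Runx1 KO libraries, so that the lowest Runx1 KO library stood above every WT library. The means differed 7.89-fold (log2 change 2.83, SE 0.33; limma adjusted p = 0.00301), and the rise passed with any library left out, at log2 changes from 2.51 to 3.09.

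Of 12 other tested genes of the lipoxygenase and cyclooxygenase pathways 5 fell, 1 rose and 6 did not pass. Alox5, the 5-lipoxygenase of leukotriene synthesis, fell from 2931 ± 747 to 684 ± 352 normalised reads, and Alox15, of eosinophils and macrophages, had 329, 194 and 53.7 in the WT libraries against 10.5, 10.9 and 29.8. Alox12e, an epidermal lipoxygenase gene, had 18.8, 19.2 and 14.4 in the WT libraries and 1.05, 0 and 2.98 in the Runx1 KO libraries. The 1 gene that rose, named after its values were seen, was Tbxas1, the thromboxane synthase of platelets, from 832 ± 36.3 to 1281 ± 116 (log2 change 0.62). Counts per gene do not tell how the authors' counting treated reads shared by such related genes. With WT replicate 2, Runx1 KO replicate 2 or Runx1 KO replicate 3 left out, 3 of the 12 fell.

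Prkcq (ENSMUSG00000026778; chromosome 2, 11172108 to 11301222, plus strand) encodes protein kinase C theta, which acts in platelet activation and in T cell signalling. Its values of 350, 323 and 387 normalised reads in the WT libraries and 1002, 809 and 884 in the Runx1 KO libraries were far apart, with little spread within a label. It rose 2.54-fold in the means (log2 change 1.34, SE 0.11; limma adjusted p = 0.00128), the smallest p among the 9, and passed with each library left out in turn (adjusted p from 0.00212 to 0.0068). Of 10 T cell markers 0 passed and all 10 had a negative log2 change, none was at 0 in all libraries, and their sum was 1442 to 2077 normalised reads in the WT libraries and 460 to 1520 in the Runx1 KO libraries. Leaving out Runx1 KO replicate 1, where they were highest among the Runx1 KO libraries, 9 of the 10 T cell markers fell. The part of T cells in the level of Prkcq was not tested.

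A related kinase gene, Prkcb, abundant in B and myeloid cells, fell from 2636 ± 625 to 1190 ± 105 normalised reads (log2 change -1.13, SE 0.16; limma adjusted p = 0.00521). In the B cell marker list 5 of 7 fell and 0 rose, with sums of 5673 to 22894 normalised reads in the WT libraries and 944 to 2512 in the Runx1 KO libraries, none at 0; their part in the fall of Prkcb was not tested. Fewer of the B cell markers fell without WT replicate 3 (3), Runx1 KO replicate 2 (1) or Runx1 KO replicate 3 (2).

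Pf4 and Ppbp encode platelet factor 4 and pro-platelet basic protein, CXC chemokines stored in the alpha granules of platelets, and the genes are neighbours: Ppbp lies at 90768518 to 90770063 and Pf4 at 90772435 to 90773383 on the plus strand of chromosome 5 (ENSMUSG00000029372 and ENSMUSG00000029373). Their differences had opposite signs, and neither passed the test. Ppbp had 33.6, 19.2 and 19.2 normalised reads in the WT libraries and 120, 34.7 and 61.7 in the Runx1 KO libraries. The highest WT library and the lowest Runx1 KO library lay next to each other, at 33.6 and 34.7. Its log2 change of 1.42 (SE 0.47) did not pass, with a limma adjusted p of 0.0685 and a 95% interval from 0.32 to 2.52. Leaving out Runx1 KO replicate 2 gave a change of 1.85 and a limma adjusted p of 0.0466, and leaving out the others 0.0710 to 0.169.

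Pf4 had 428, 448 and 477 normalised reads in the WT libraries and 391, 238 and 153 in the Runx1 KO libraries. All 3 Runx1 KO libraries lay below the WT libraries, replicate 1 by little and replicate 3 by most. The log2 change of -0.89 (SE 0.31; 95% interval from -1.61 to -0.17) did not pass, with a limma adjusted p of 0.0782. Leaving out Runx1 KO replicate 1 gave -1.23 and a limma adjusted p of 0.00866, and leaving out the others 0.131 to 0.187.

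Set against each other per kilobase of exon, Ppbp stood at 5.23%, 2.85% and 2.68% of Pf4 in the WT libraries and at 20.5%, 9.71% and 26.8% in the Runx1 KO libraries. The lowest Runx1 KO library lay above the highest WT library, and the log2 ratio was higher by 2.35 (-4.28 ± 0.53 against -1.93 ± 0.76, SD, n = 3). The exact two-sided permutation p was 0.1, the smallest that 3 libraries against 3 can give, for a comparison chosen after the values were seen. Each Runx1 KO library lay above the WT libraries for Ppbp and below them for Pf4. The separation of the ratio and its p were therefore fixed in advance and add nothing to the values of each gene.

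**Figure D3:**
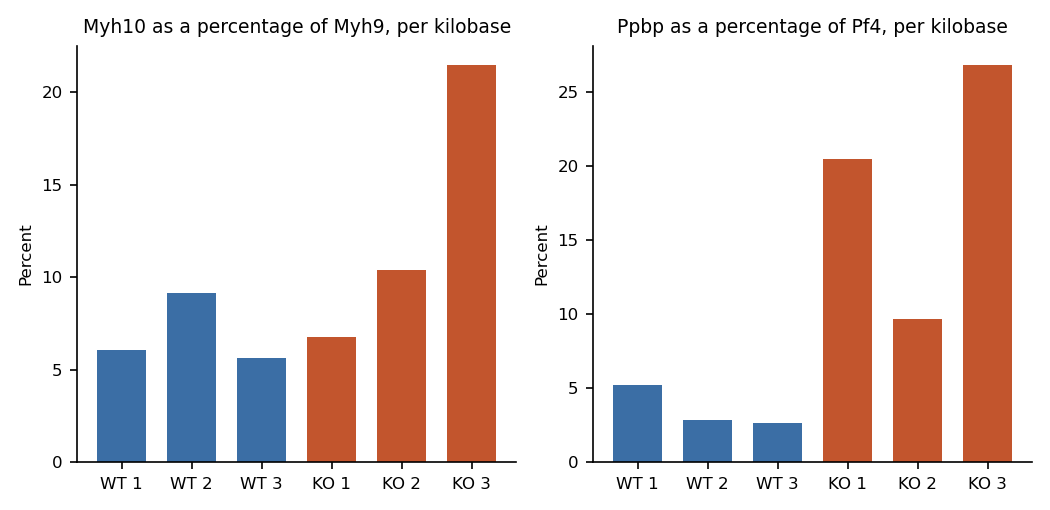
Left, Myh10 as a percentage of Myh9, and right, Ppbp as a percentage of Pf4, both per kilobase of exon, 1 bar per library, blue for WT and orange for Runx1 KO (KO). The Myh10 share overlaps between the labels and reaches 21.5% in Runx1 KO replicate 3. The Ppbp share is 5.23% at most in WT libraries and 9.71% at least in Runx1 KO libraries, a separation already fixed by the values of Ppbp and of Pf4.

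The promoters of these neighbours are shown because the genes lie side by side while their differences had opposite signs. The letters of the RUNX site, TGTGGT or TGCGGT, were in neither, on either strand. Pf4 held AGATAA, letters of a GATA site, from base 36 after the start site; AGATAA or TGATAA occur in 18.6% of the 32851 windows and in 1 of the 8 windows found for the 10 genes. No TGAGTCA or TGACTCA, the core of an NF-E2 site, and no CCGGAAGT or CAGGAAGT, letters of ETS sites, were found in the 8 windows, where 5.2% and 7.07% of all windows hold them. The absence of letters says nothing of the factor beyond these windows. The sequences are those of RefSeq on GRCm38.p6, chr5:90768268-90768567 for Ppbp and chr5:90772185-90772484 for Pf4, both on the plus strand and written 5′ to 3′, with the letters AGATAA of Pf4 in capitals:
Ppbp: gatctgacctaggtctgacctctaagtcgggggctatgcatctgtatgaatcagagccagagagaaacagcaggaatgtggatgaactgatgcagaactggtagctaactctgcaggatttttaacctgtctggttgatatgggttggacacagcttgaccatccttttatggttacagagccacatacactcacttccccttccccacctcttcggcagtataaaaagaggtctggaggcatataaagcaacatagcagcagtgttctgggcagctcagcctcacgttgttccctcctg
Pf4: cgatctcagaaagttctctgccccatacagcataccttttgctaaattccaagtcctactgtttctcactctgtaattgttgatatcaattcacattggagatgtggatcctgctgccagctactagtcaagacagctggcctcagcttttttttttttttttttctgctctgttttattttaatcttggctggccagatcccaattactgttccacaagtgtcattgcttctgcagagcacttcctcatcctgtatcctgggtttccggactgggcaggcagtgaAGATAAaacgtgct

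Of the other CXC chemokine genes of this cluster, 3 of 5 had a row and 1 had enough reads to be tested. Cxcl2, a neutrophil-attracting chemokine, had 2425, 471 and 646 normalised reads in the WT libraries and 842, 122 and 169 in the Runx1 KO libraries, and did not pass (log2 change -1.80, SE 0.85; limma adjusted p = 0.167); it fell without Runx1 KO replicate 1 (log2 change -2.65). The genes with the profile most like that of Pf4 over the 6 libraries were Klk1 (Pearson's r = 0.996), Ccr9 (0.995) and Zfp414 (0.993), as a description of 12268 genes. Klk1, a kallikrein gene, had 94.97, 86.8 and 127 normalised reads in the WT libraries and 38.7, 3.96 and 0 in the Runx1 KO libraries, and Ccr9, a chemokine receptor gene of lymphoid cells, had 128, 114 and 185 against 94.1, 17.8 and 5.97. As with Pf4, Runx1 KO replicate 1 was nearest to the WT libraries in both, which follows from their choice by likeness to Pf4.

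Vwf (ENSMUSG00000001930; chromosome 6, 125546774 to 125686679, plus strand) encodes von Willebrand factor, the adhesive protein that links platelets to the vessel wall, made by megakaryocytes and endothelial cells and also transcribed in a class of stem cells biased to platelets. It had 705, 722 and 735 normalised reads in the WT libraries, a spread of 2.05% of the mean, and 1210, 935 and 882 in the Runx1 KO libraries, all higher. It rose 1.40-fold in the means (log2 change 0.47, SE 0.12; limma adjusted p = 0.0356). The call was lost without WT replicate 1, 2 or 3 or Runx1 KO replicate 2, at limma adjusted p values of 0.0795, 0.0888, 0.0785 and 0.0814.

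Markers of other cells that transcribe Vwf were read in the same libraries. In the endothelial list 4 of 8 tested markers rose, 0 fell and 4 did not pass, 3 of these with a negative log2 change, and 1 fell without WT replicate 2. The summed level of its 10 markers was 3974 to 5408 normalised reads in the WT libraries and 5063 to 6353 in the Runx1 KO libraries, none at 0 in all libraries. In the stem cell list 8 of 10 rose and 0 fell, with sums of 2815 to 3960 and 6184 to 6808. The part of either in the rise of Vwf was not tested.

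Other alpha granule genes were mixed, as the chemokines and Vwf were: of 16 tested 5 rose, 2 fell and 9 did not pass, with a median log2 change of 0.15. Ecm1, the gene of an extracellular matrix protein, rose from 135 ± 26.6 to 840 ± 68.7 normalised reads (log2 change 2.65), and Selp, which encodes the granule membrane receptor P-selectin, from 289 ± 46.7 to 1004 ± 138 (1.79). Cd63, also on this list, fell from 4003 ± 677 to 1447 ± 120 (-1.46). It encodes a granule membrane tetraspanin that is not particular to alpha granules and that basophils and other myeloid cells share. Of 7 tested mast cell and basophil markers 5 fell and 0 rose, with sums of 12356 to 16710 normalised reads against 9661 to 12049 and none at 0. The other 2, Hdc and Cpa3, had positive log2 changes (0.31 and 0.40) that did not pass. Hdc was the most abundant of the list, with 6503 ± 1077 against 8021 ± 480. Mcpt8, named after its values were seen, fell from 1662 ± 198 to 132 ± 10.4. The part of mast cells and basophils in the fall of Cd63 was not tested. The count of falling granule genes was 1 without WT replicate 2 or Runx1 KO replicate 2.

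The receptors of the platelet surface mostly rose. Of 20 tested 12 rose, 1 fell and 7 did not pass, with a median log2 change of 0.75. Treml1, the gene of a receptor of platelet granules, had 71.2, 75.7 and 86.3 normalised reads in the WT libraries and 547, 374 and 285 in the Runx1 KO libraries. Gp5, of the von Willebrand factor receptor complex, rose from 246 ± 41.1 to 932 ± 77.0 (log2 change 1.93), and Mpig6b, an inhibitory receptor gene, from 3.64 ± 1.59 to 16.9 ± 5.60 (1.96). Among 9 other genes reported as RUNX1 targets in megakaryocytes, which share 4 genes with the granule and receptor lists, 5 rose, 1 fell and 3 did not pass. Of the reported targets, 2 rose when WT replicate 1, WT replicate 2 or Runx1 KO replicate 2 was left out, and 3 without Runx1 KO replicate 1.

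Read against megakaryocyte markers, the 9 tested genes lay on both sides. Of 11 tested markers of this lineage 8 rose and 0 fell, with a median log2 change of 0.87 and sums of 4198 to 5039 normalised reads in the WT libraries and 6468 to 9401 in the Runx1 KO libraries. None was at 0 in all libraries, although Gp6, the platelet collagen receptor gene, was too low to be tested. Alox12, Tubb1, Ppbp and Prkcq had log2 changes above this median, whereas those of Vwf, Myh10 and Nfe2 lay between it and 0, and those of Myh9 and Pf4 were negative. The marker sum was 9401, 9006 and 6468 in Runx1 KO replicates 1 to 3. Replicate 1 was also the highest of its group in 8 of the 9 tested genes, Myh10 being the exception. That library was the highest of its group in the sums of neutrophil, B cell, T cell, endothelial and smooth muscle markers too. It was not the highest in those of stem cell, erythroid, or mast cell and basophil markers. The part of the number of megakaryocyte cells in the rises was not tested. Of the 11 markers 4 rose without Runx1 KO replicate 2, and 5 without WT replicate 2.

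**Figure D4:**
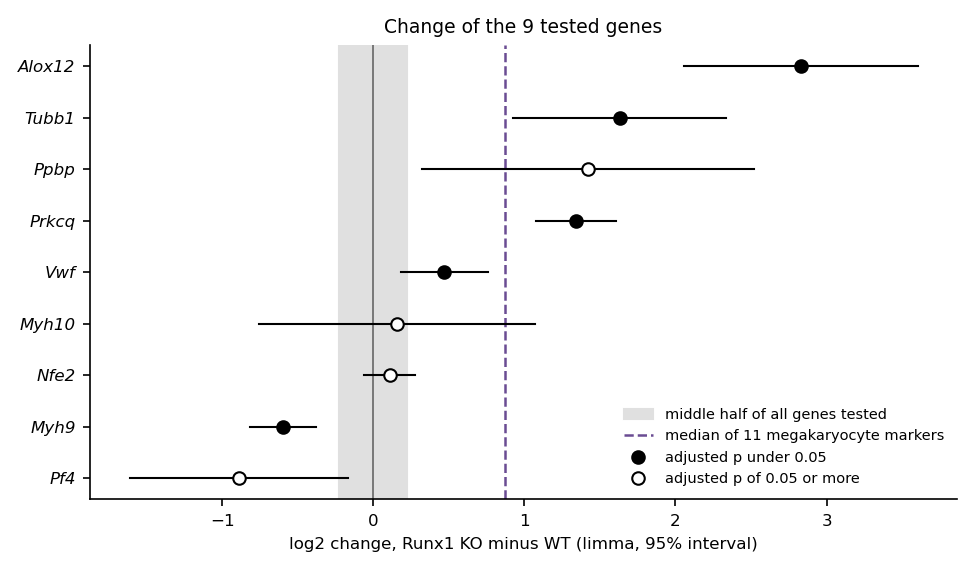
Log2 change (x axis, libraries labelled Runx1 KO minus WT, limma, with 95% intervals) of the 9 tested genes; filled points passed an adjusted p of 0.05. The grey band is the middle 50% of all genes tested and the dashed line the median of 11 megakaryocyte markers at 0.87. The points of Alox12, Tubb1, Ppbp and Prkcq lie above this line, and the interval of Ppbp, which did not pass, crosses it.

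**Figure D5:**
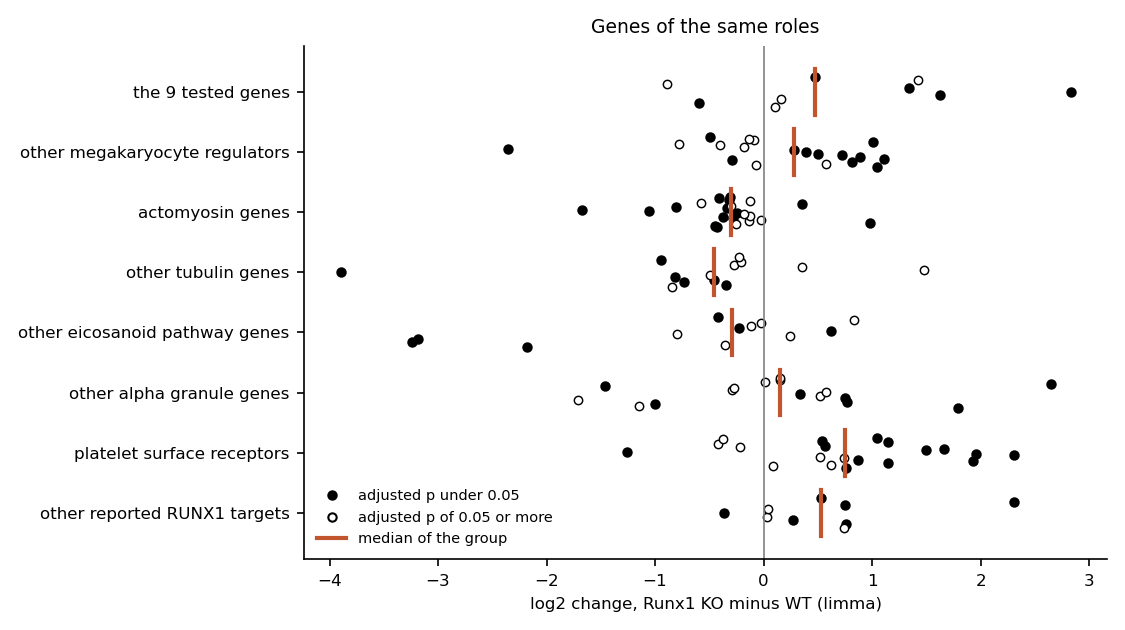
Log2 change (x axis, libraries labelled Runx1 KO minus WT, limma) of the 9 tested genes and of genes in 7 of the lists by role, 1 point per gene, filled where the adjusted p was under 0.05, with the median of each group as an orange bar. The actomyosin and tubulin groups lie mostly to the left, with medians of -0.30 and -0.46, and the platelet surface receptors to the right, with a median of 0.75.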

How the data were processed

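Expression was measured by strand-specific poly-A RNA sequencing of c-Kit-positive mouse bone marrow cells on a HiSeq2500, per the labels' protocols. The submitters' processing notes name HISAT2, HTSeq 0.9.1 and the builds mm10 and GRCm38; the annotation, the strand setting of the counting and the normalization are not given in the sources used here. The deposited values are a signal, read counts that the authors divided by a size factor per library, worked out from the values: in each file 100% of the values are whole multiples of the smallest positive value (tolerance 0.001), and the reciprocals of these steps, 0.956 to 1.04, equal the median-of-ratios size factors of the recovered reads. They are called normalised reads. The lowest total of a listed gene was 10 reads.

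Symbols came from a table of Ensembl identifiers (20077 matched, 20 did not), and positions and exon lengths from GENCODE M21 on GRCm38, in which no gene shared exon bases with any of the 10. Genes passing filterByExpr (minimum count 10, total 15) were tested with limma 3.58.1 (lmFit, eBayes with trend) in R 4.3.3 on log2(normalised reads + 1), group as the only term, two-sided, Benjamini-Hochberg over 15410 genes, threshold 0.05; fold changes on this scale understate those of low genes. Count tests on the recovered reads used edgeR 4.0.16 and DESeq2 1.42.0 as alternatives. The fit was tested on simulated data. Reads per kilobase used union exon length. The list of kinase genes related to Prkcq is not reported here as a whole. The 10 genes and all lists were chosen with earlier results of these data known. Named beside the 10 genes were Runx1, Kit, up to 3 called genes per list by size of change, and the 3 genes most correlated with Myh10 and with Pf4. With 3 libraries against 3, an exact test cannot go below 0.1. Counting error alone is covered by the interval given for Myl9.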

Additional observations from a re-analysis of the deposited data

How the results depend on the processing

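In the 11 alternatives that kept all libraries (pseudocounts of 0.5 and 5, no filter or a minimum mean abundance of 1 CPM, TMM or library totals as scaling, edgeR, DESeq2, limma-voom and a replicate block in limma and edgeR), the call and direction of the 9 tested genes were kept in 95 of 99 values, and 4 gained a call. DESeq2 called Pf4 (adjusted p 0.0427) and Ppbp (0.0239), so that 2 of the genes were lower in place of 1. With no filter Myl9 was called as well, which also gave 2 lower genes. Among the lists, DESeq2 called 10 tubulin genes lower in place of 6, 4 alpha granule genes lower in place of 2, 3 T cell markers lower and 2 erythroid markers higher in place of 0; limma-voom called 2 T cell markers lower, and library totals 2 eicosanoid genes higher in place of 1 and 1 mast cell or basophil marker higher in place of 0.

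The titles number the libraries 1 to 3 in both groups. Same-numbered libraries deviated from their group means with correlations of 0.29, 0.13 and -0.01, so the numbers were not taken as pairs; WT replicate 2 correlated best with Runx1 KO replicate 3 (0.23). With the replicate number as a block, limma called 3843 genes against 3370 and 6 of the 10 against 5, Ppbp being added (adjusted p 0.0194), and edgeR 3685 genes and again 6. With the block in limma and in edgeR, 5 and 4 T cell markers and the chemokine gene Cxcl2 were called lower, and 1 tubulin gene, 1 erythroid marker and 1 mast cell or basophil marker higher, where without it none was. For the ratio of Myh10 to Myh9 the block gave the difference of 0.75 with an exact sign-flip p of 0.25.

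Leaving out a library in turn gave 4 to 6 called genes of the 10, 3 to 4 higher and 1 to 2 lower, 1349 to 3551 genes in all (1349 without Runx1 KO replicate 2, 1743 without Runx1 KO replicate 3 and 2140 without WT replicate 2), and differences of the Myh10 to Myh9 ratio from 0.30 to 1.13. Of 54 values for the 9 genes 46 stayed on their side of the threshold, 4 lost a call (all Vwf), 2 gained it, and 2, both of Myh10, reversed: -0.060 without WT replicate 3 and -0.25 without Runx1 KO replicate 3, with 0.51 without Runx1 KO replicate 1. The cause was not tested. Under library totals the median of all genes was 0.08 on the log2 scale, which moved no call of the 9. Depth limits Myl9, with 23 reads in all.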
